A study of Arabidopsis thaliana with 6 samples.

Results

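The comparison was of Arabidopsis thaliana seedlings kept without oxygen for 6 h in medium with 90 mM sucrose and of seedlings kept without oxygen for 6 h in medium with no added sugar. It used 4 of the 6 arrays of the series, chosen by title: the anoxia array and the sucrose array of experiment 1, and those of experiment 2. The remaining 2 arrays carried seedlings kept in air for 6 h with no added sugar, 1 from each experiment, and their values are set beside the others. All groups were of the ecotype Columbia glabra and had been raised at 23 °C for 4 days, in darkness and on a diluted Murashige and Skoog medium lacking sucrose, in the wells of culture plates. RNA of 4 seedling cultures was pooled for each array, so the arrays stand for whole seedlings and for 2 independent experiments per group. No group had sucrose in air, and no group had an osmotic control, so the effect of sucrose as a sugar and its effect as a solute cannot be told apart.

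Without oxygen, mitochondria cannot pass electrons to their final acceptor, and a plant cell makes ATP by glycolysis, with fermentation to ethanol or lactate returning the reduced cofactor. Seedlings grown in the dark without sugar live on their seed reserves, and a supply of sugar is known to prolong the survival of plants without oxygen. Low oxygen also induces small heat shock proteins, chaperones that hold unfolding proteins in a state from which they can be rescued, even with no rise in temperature. Sugar shortage, for its part, is known to induce genes that burn amino acids, among them those of leucine breakdown.

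Levels below are log2(signal + 16) less the median of the array, and a change is the level with sucrose less the level without it in the same experiment. Adding 16 compresses changes of dim genes, and where array medians differ it also shifts these changes up or down, by amounts given below. Changes over both experiments are given with the standard error of the limma fit, which had the experiment as a block and used all 6 arrays. Its p-values are two-sided and adjusted by Benjamini-Hochberg over 15922 tested probe sets (a probe set is the group of short oligonucleotides that reports a transcript). They set a change against the spread left once group and experiment are fitted. That spread has 2 residual degrees of freedom per probe set, and a prior drawn from all tested probe sets adds 17. Only 2 experiments stand behind it. In whole seedlings, fewer cells of a type and less RNA per cell cannot be told apart.

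The sucrose array of experiment 1 stood apart from the rest. Its median signal was 21.2, against 30.8 to 50.6 on the other 5 arrays. For its actin control the 3' end gave 21.6 times the signal of the 5' end, and for its GAPDH control 7.61 times, ratios that reached no more than 4.24 and 2.42 on the others. Changes in experiment 1 also went with gene length, which was not so in experiment 2. Across 8597 genes the Spearman correlation of the change with the length of the gene was -0.39 in experiment 1 and 0.01 in experiment 2, as a description of genes that share 4 arrays. Of 4 length classes of equal size, in the shortest (78 to 1648 bases) the median change was 0.43 in experiment 1 and 0.03 in experiment 2. In the longest class (3207 bases and more) the medians were -0.17 and 0.04. The part of RNA quality in any one result was not tested, and results below are therefore given by experiment. For some lists, but not all, the change less the median of the genes in the same length class is given too. This correction was chosen after the data were seen. A probe set with no signal at all would show a change of 0.72 in experiment 1 and -0.47 in experiment 2, since array medians differed.

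**Figure D1:**
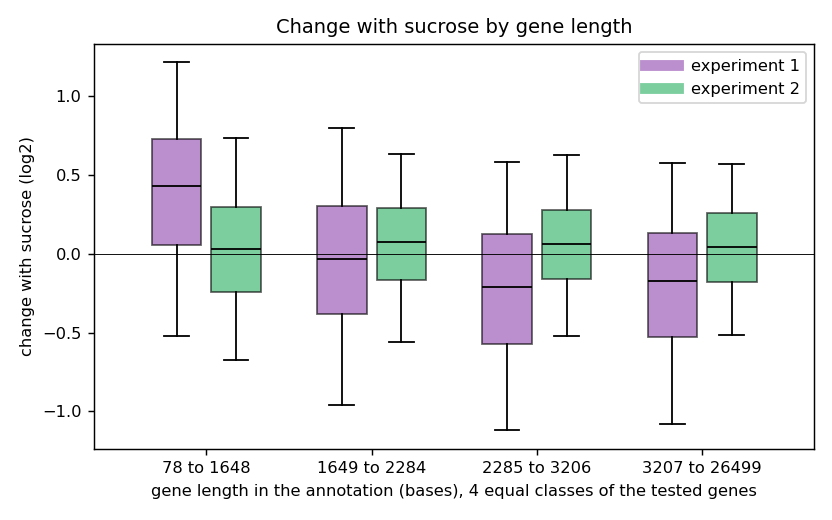
Change with sucrose under anoxia (log2, y axis) for 8597 tested genes in 4 classes of gene length (bases, x axis), by experiment. Boxes span the middle 50% of genes with the median as a line, and whiskers run from the 5th to the 95th percentile. In experiment 1 the median runs from 0.43 in the shortest length class to -0.17 in the longest, while in experiment 2 it stays between 0.03 and 0.08.

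Few transcripts differed between seedlings with and without sucrose by more than the error of the fit. At the threshold of 0.05 on the adjusted p, limma called 3 probe sets higher with sucrose (0.0188% of those tested) and 0 lower (0%). An unadjusted p under 0.05 was reached by 372 on the higher side and 186 on the lower. Together these are 558, a smaller share than the 0.05 of tests that would reach it with no effect anywhere. The platform annotation pairs none of the 3 called probe sets with exactly 1 gene. The largest of their changes was that of 253884_at, with levels of -1.35 and -1.38 in air, -0.25 and 1.67 in anoxia and 2.96 and 3.21 with sucrose. Both sucrose arrays lay above both anoxia arrays, as was so for 9.47% of all tested probe sets, while 10.2% had both below. Its change was 2.37 ± 0.39 (SE, adjusted p = 0.0444). The changes of 247691_at and 253073_at were 2.19 ± 0.33 and 1.92 ± 0.29 (adjusted p = 0.0247 for each). The levels of 247691_at were -1.21 and -0.89 in air, -0.32 and 1.11 in anoxia and 2.23 and 2.94 with sucrose. Those of 253073_at were -0.35 and 0.92 in air, -1.70 and 0.33 in anoxia and 0.42 and 2.04 with sucrose. On the anoxia array of experiment 1 the signal of 253073_at was 2.9, and no signal at all would read -1.94 there. Its change in experiment 1 thus started from almost no signal. The 3 calls depended on how the arrays were used. Without the block limma called 0, with 161 at an unadjusted p under 0.05. With only the 4 arrays compared, paired by experiment, it called 29, of which 26 were higher. Without either air array it called 30. Without either sucrose array it called 0, in a fit that leaves 1 array in that group and takes its spread from the other groups.

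A second way of reading the data was by size in each experiment. More than 2-fold higher with sucrose in both experiments were 48 probe sets (0.301%), and more than 2-fold lower in both were 9 (0.0565%). At 1.5-fold the counts were 291 higher (1.83%) and 88 lower (0.553%), and at any size 25.6% of probe sets were higher in both and 21.2% lower in both. Over all tested probe sets the experiments did not share a direction: the changes correlated at -0.005 (a description across probe sets, which are not replicates), and 46.9% had 1 sign in both. More than 2-fold in opposite ways were 12 probe sets. Counted by experiment, those shared by both included, 548 probe sets were over 2-fold higher and 939 lower in experiment 1, and 201 were higher and 110 lower in experiment 2. Of the 48 higher probe sets 24 have a single gene, as have 5 of the 9 lower ones. Of the 23 genes with a known length that were over 2-fold higher in both experiments, 21 belong to the shortest length class. After the length correction 14 genes were higher and 4 lower by more than 2-fold in both.

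**Figure D2:**
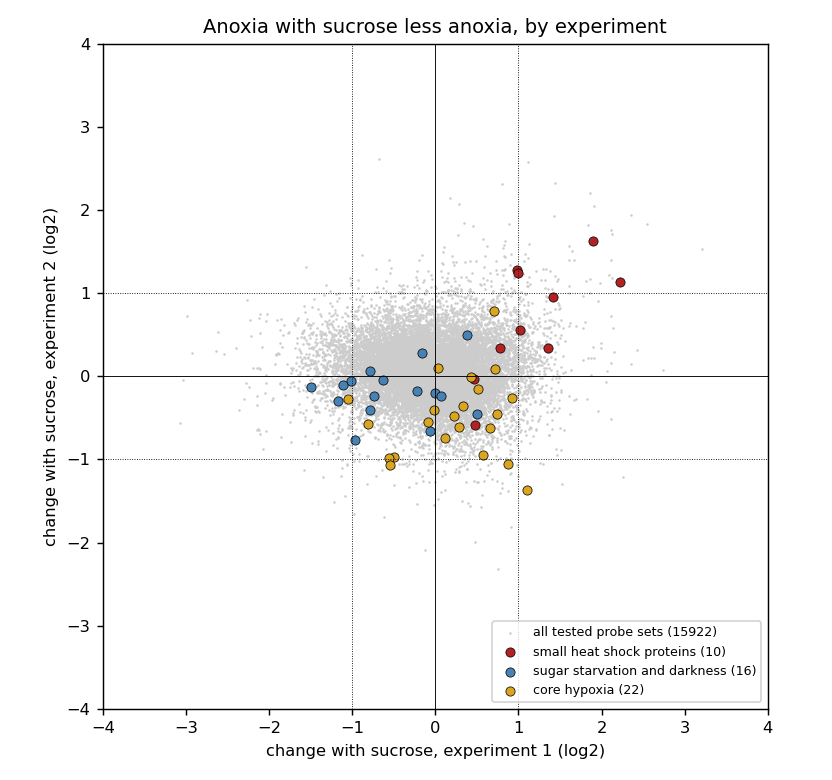
Change with sucrose in experiment 1 (x axis) against experiment 2 (y axis), both log2, for the 15922 tested probe sets in grey, with genes of 3 lists in colour. Dotted lines mark 2-fold. Most small heat shock protein genes (red) lie to the upper right, most sugar starvation genes (blue) to the left, and most core hypoxia genes (yellow) below 0 in experiment 2.

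Small heat shock protein genes were the list with the largest median change among lists with 4 or more tested genes. Of 19 genes in the list 10 were tested, 8 of them were higher with sucrose in both experiments, 5 by more than 1.5-fold in both, and 0 passed the adjusted test. For 7 of the 10 both sucrose arrays lay above both anoxia arrays. Over all tested probe sets 9.47% lay so, 25.6% were higher in both experiments, and 1.83% were so by more than 1.5-fold. In the shortest length class 110 of 2151 genes were over 1.5-fold higher in both, so shares over all probe sets are a low background here. The list was chosen with earlier results of these data known. The median change of the 10 genes was 1.01 in experiment 1 and 0.76 in experiment 2, against -0.02 and 0.05 over all tested genes. All 10 belong to the shortest length class, and with the length correction the medians were 0.58 and 0.72. In the fit over both experiments the median was 0.98, and 0.60 without the anoxia array of experiment 1. The same genes were above air already under anoxia, with a median difference of 1.82 and 2.27 in experiments 1 and 2. Those differences share the anoxia arrays with the comparison here and are only set beside it.

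Among the cytosolic members, AT2G29500 read -0.33 and -0.46 in air, 1.88 and 2.59 in anoxia, and 3.79 and 4.22 with sucrose. Both sucrose arrays were above both anoxia arrays, by 1.90 in experiment 1 and 1.63 in experiment 2, and the change was 1.76 ± 0.41 (adjusted p = 0.31). AT1G53540, another small heat shock protein of the cytosol, read 0.17 and -0.37 in air, 1.93 and 1.92 in anoxia, and 2.91 and 3.20 with sucrose. Its groups did not overlap either, and its change was 1.13 ± 0.39 (adjusted p = 0.999).

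Members that work in organelles behaved alike in direction. ATHSP22.0, which resides in the endoplasmic reticulum, read -0.63 and 0.18 in air, 1.95 and 2.43 in anoxia and 4.17 and 3.56 with sucrose, a change of 1.68 ± 0.43 (adjusted p = 0.529). AT5G51440, a mitochondrial member, read -0.33 and 0.44 in air, 1.54 and 1.98 in anoxia and 2.54 and 3.23 with sucrose, a change of 1.12 ± 0.37 (adjusted p = 0.999). For both genes each sucrose array exceeded each anoxia array. AT5G37670, which is targeted to peroxisomes, was higher by 0.78 and 0.34, and AT1G52560 by 1.02 and 0.56, the latter with groups that overlapped.

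Of the other members, AT1G54050 had the highest levels with sucrose, 4.13 and 5.02, against 2.71 and 4.06 under anoxia and 0.30 and 0.04 in air. Its change was 1.42 in experiment 1 and 0.95 in experiment 2, while its groups were separated by only a small gap. AT2G19310 was higher by 1.35 and 0.35. The other two members did not share a direction between experiments: AT5G54660 changed by 0.46 and -0.03, and AT4G21870 by 0.48 and -0.59. AT4G21870 was also the one member that stood high in air, at 4.25 in experiment 1.

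**Figure D3:**
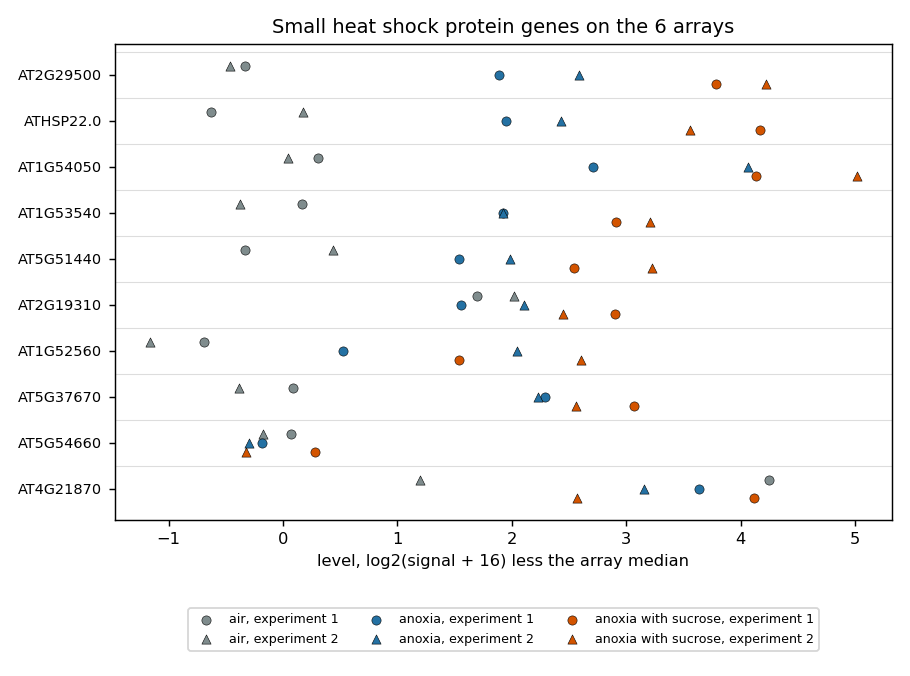
Levels (log2 of signal + 16 less the array median, x axis) of the 10 tested small heat shock protein genes on all 6 arrays, ordered by change. Circles are experiment 1 and triangles experiment 2, and colours give air, anoxia and anoxia with sucrose. For 7 of the 10 genes, all but AT1G52560, AT5G54660 and AT4G21870, both arrays with sucrose lie to the right of both anoxia arrays, as they do for 9.47% of all tested probe sets.

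Larger chaperones and co-chaperones, which refold proteins with the use of ATP, were tested through 5 of 29 genes, all longer than the shortest length class. In experiment 2 all 5 were higher with sucrose, by 0.54 to 0.75. In experiment 1 they lay between -0.88 and 0.51, so that 2 were higher in both experiments and 0 passed. These were AT5G48570, a prolyl isomerase of the FKBP family, higher by 0.51 and 0.66, and AT2G20560, of the DnaJ family, higher by 0.04 and 0.68. Of 17 genes of the unfolded protein response of the endoplasmic reticulum 4 were tested, with medians of -0.22 and 0.00. BZIP60, a transcription factor of that response, was higher by 0.56 and 0.43, whereas BZIP28, a membrane-held factor of the same response, was lower by 0.99 and 0.07.

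A few named genes came near the threshold. With the threshold at 0.1 limma called 8 probe sets, 3 of them with 1 gene each, and these were AT5G05600, GRX480 and AR781. AT5G05600, which oxidises jasmonic acid to an inactive form, read 0.00 and -0.67 in air, 0.44 and -0.41 in anoxia and 2.04 and 1.16 with sucrose. Its change was 1.60 and 1.57 by experiment and 1.59 ± 0.29 in the fit (adjusted p = 0.0854), and it lies outside the shortest length class, to which GRX480 and AR781 belong. GRX480, a glutaredoxin that binds TGA transcription factors, read -1.25 and -1.22 in air, -0.45 and -0.67 in anoxia and 1.64 and 0.55 with sucrose, a change of 1.66 ± 0.31 (adjusted p = 0.0934). Both genes were higher on both sucrose arrays than on any of the other 4 arrays. AR781 read 0.16 and -0.02 in air, 0.35 and 0.27 in anoxia and 1.79 and 2.20 with sucrose, a change of 1.68 ± 0.32 (adjusted p = 0.0934). In the fit of only the 4 arrays compared, with the experiment as a block, the adjusted p was 0.00123 for AT5G05600, 3.2e-05 for GRX480 and 0.00354 for AR781. Over all alternatives the adjusted p ran from 2.16e-05 for GRX480 to 1.00 for each of the 3.

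GSTU25, a tau class glutathione transferase, was likewise highest on the sucrose arrays: -1.61 and -0.99 in air, -0.29 and -0.73 in anoxia, 1.57 and 0.44 with sucrose. Its change was 1.51 ± 0.35 (adjusted p = 0.31). The class as a whole did not share it. Of 26 tau class genes 7 were tested, of which 3 were higher in both experiments and 1 lower, with medians of 0.27 and 0.05. Of the 7, 6 belong to the shortest length class, and with the length correction the medians were -0.16 and 0.02. GSTU26 was higher by 0.72 and 0.91 and GSTU16 lower by 0.40 and 0.35. Of the list of oxidative stress and mitochondrial retrograde genes 5 of 26 were tested, and GRX480 was the 1 member higher in both experiments. AT1G76640, a calmodulin-like protein, was at -1.80 and -1.50 in air, 0.50 and -1.44 in anoxia and 1.94 and 0.89 with sucrose (change 1.88 ± 0.38, adjusted p = 0.147). No signal at all would read -1.96 and -1.55 in air and -1.58 on the anoxia array of experiment 2. Its change was 3.29 with a pseudocount of 1 and 0.99 with 64. AT1G76640 and AR781 were the only 2 of 5 tested genes, of 50 in the list of rapid stress, wounding and jasmonate, that were higher in both.

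The genes with the largest change that held in both experiments differed in level between the experiments. AT2G41730 read 0.23 and -0.39 in air, 2.27 and -0.17 in anoxia and 4.63 and 1.77 with sucrose, a change of 2.15 ± 0.45 (adjusted p = 0.182). AT3G13650, of the dirigent protein family, read 1.28 and 0.06 in air, 2.86 and -0.47 in anoxia and 4.72 and 1.73 with sucrose, a change of 2.03 ± 0.46 (adjusted p = 0.302). For both, the anoxia array of experiment 1 was above the sucrose array of experiment 2, so the groups overlap and only the pairs within an experiment separate them. The same holds for AT4G36500, higher by 1.64 and 1.51, for AT2G34585, higher by 1.46 and 1.15, and for AT1G53690, higher by 1.32 and 1.16. The probe set for AT2G41730 is of a kind that can also bind transcripts of other genes, as its identifier marks. AT1G68620, of the alpha/beta hydrolase family, was higher by 1.33 and 1.30.

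Some of the genes that were higher with sucrose had been lower under anoxia than in air. AT4G09890 read 3.12 and 3.06 in air, 1.08 and 0.90 in anoxia and 3.06 and 2.03 with sucrose, so that in experiment 1 the sucrose array stood at the level of air. AT1G28190 read -0.94 and -0.24 in air, -1.52 and -1.42 in anoxia and -0.14 and -0.15 with sucrose, with signals of 5.4 and 1.9 under anoxia, below the 16 that was added. LBD29, a transcription factor of lateral root initiation, read 0.85 and 0.37 in air, -1.18 and -1.40 in anoxia and -0.08 and -0.31 with sucrose, a change of 1.09 ± 0.28 (adjusted p = 0.546). For these 3 genes, picked by changes on the same arrays, both sucrose arrays were above both anoxia arrays, as for 9.47% of all tested probe sets. RALFL33, a peptide of the rapid alkalinization factor family, read 4.52 and 4.09 in air, 3.16 and 2.17 in anoxia and 4.30 and 3.28 with sucrose. It was among the 9 further genes over 2-fold higher in both experiments that lay beyond the 15 largest. The others were AT3G57450, AT1G19020, AT5G66590, AT5G10695, ASPGB1 (an asparaginase), AT3G28940, AT3G05920 and LBD29, and over these 9 the changes ran from 1.03 to 1.86 in experiment 1 and from 1.00 to 1.38 in experiment 2.

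**Figure D4:**
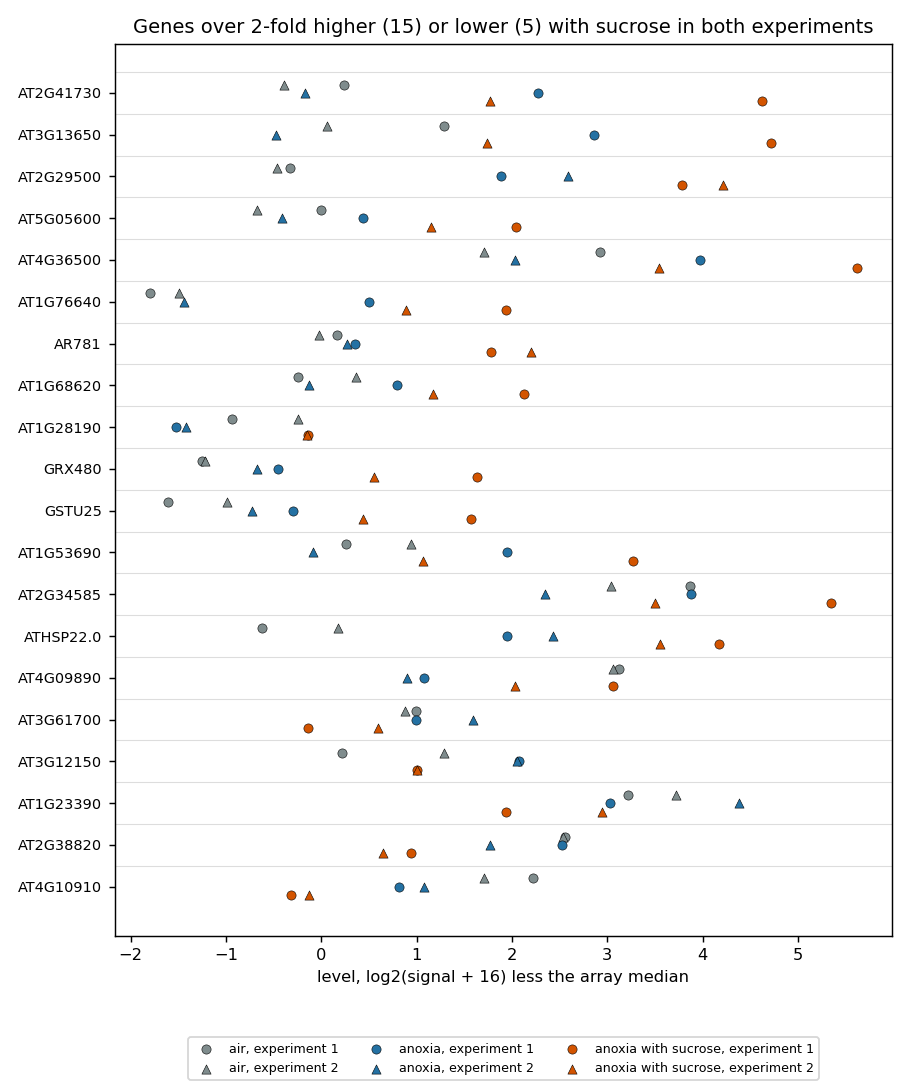
Levels (log2 of signal + 16 less the array median, x axis) on all 6 arrays for the 15 genes with the largest change that were over 2-fold higher with sucrose in both experiments and the 5 genes over 2-fold lower, ordered by the smaller of their 2 changes. Circles are experiment 1, triangles experiment 2. Within each shape the sucrose point (orange) lies to the right of the anoxia point (blue) for the upper 15 genes and to the left for the lower 5.

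Genes lower with sucrose were fewer. The 9 probe sets over 2-fold lower in both experiments (0.0565% of those tested) did not outnumber the 12 that changed over 2-fold in opposite ways. AT1G23390, a kelch repeat F-box protein that marks chalcone synthase of flavonoid synthesis for degradation, read 3.22 and 3.72 in air, 3.02 and 4.38 in anoxia and 1.93 and 2.94 with sucrose, a change of -1.26 ± 0.44 (adjusted p = 0.999). AT2G38820 read 2.56 and 2.53 in air, 2.52 and 1.77 in anoxia and 0.94 and 0.65 with sucrose, a change of -1.35 ± 0.40 (adjusted p = 0.868). Both sucrose arrays of each gene were below both anoxia arrays, and below both air arrays. AT4G10910 was lower by 1.13 and 1.20, AT3G12150 by 1.06 and 1.05 and AT3G61700 by 1.13 and 1.00. For these 3 genes too the sucrose arrays were the lowest of the 4 compared, as for 10.2% of all tested probe sets. The genes were picked by changes on these same arrays, so the order is no separate result.

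Genes known to be induced by sugar shortage or darkness tended to be lower with sucrose, by amounts that differed between experiments. Of 48 genes in the list 16 were tested, of which 11 were lower in both experiments, 1 was higher in both and 0 passed. Over all tested probe sets 21.2% were lower and 25.6% higher in both. The median was -0.68 in experiment 1 and -0.19 in experiment 2, or -0.63 and -0.22 with the length correction. In the fit over both it was -0.37, which became -0.15 with the anoxia array of experiment 1 left out and -0.70 with the one of experiment 2 left out. The member with the largest change that held in both was AT5G19120, of the aspartyl protease family, at 4.34 and 5.51 in air, 5.11 and 4.72 in anoxia and 4.14 and 3.95 with sucrose. Its change was -0.87 ± 0.42 (adjusted p = 0.999), and its sucrose arrays lay below both anoxia arrays.

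Leucine breakdown was represented by its mitochondrial steps. IVD, isovaleryl-CoA dehydrogenase, was lower by 1.49 in experiment 1 and 0.12 in experiment 2. MCCA and MCCB, the subunits of methylcrotonyl-CoA carboxylase, were lower by 0.79 and 0.40 and by 1.02 and 0.05. The enzymes that pass their electrons to the respiratory chain were ETFQO, lower by 1.17 and 0.30, ETFBETA, lower by 0.74 and 0.24, and D2HGDH, which feeds the same route, lower by 1.11 and 0.11. All 6 of these genes were lower in both experiments, and in experiment 2 the size was 0.05 to 0.40. MCCA, as the brightest, read 4.61 and 5.03 in air, 5.76 and 5.28 in anoxia and 4.97 and 4.88 with sucrose, so that its sucrose arrays lay between those of air and anoxia in experiment 1 and below both in experiment 2.

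The remaining members varied. CCL was lower by 0.63 and 0.05, ATL8, a RING-type ubiquitin ligase, by 0.22 and 0.18, AT3G15630 by 0.07 and 0.66, and AT3G15450 by 0.00 and 0.20. AT2G05540, a glycine-rich protein gene, was the 1 member higher in both, by 0.38 and 0.49. The other 4 had no common direction. AKINBETA1, a subunit of the SnRK1 kinase that senses energy shortage, changed by -0.79 and 0.06. BZIP53, a transcription factor downstream of that kinase, changed by 0.07 and -0.23, AT1G56220 by -0.16 and 0.29 and GAT1_2.1, an amidotransferase, by 0.50 and -0.45.

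Core hypoxia genes, those that low oxygen induces across plant organs, differed in direction between the experiments. Of 48 genes 22 were tested: in experiment 1, 15 were higher with sucrose (median 0.31), and in experiment 2, 19 were lower (median -0.52). Of these 17 belong to the shortest length class, and with the length correction the medians were 0.04 and -0.56. In both experiments 7 were lower and 3 higher, and 0 passed. The median of the fitted changes was -0.68 when the sucrose array of experiment 1 was left out and 0.56 when the one of experiment 2 was. AT3G10040, a trihelix factor that restrains the low oxygen response, read -1.34 and -0.98 in air, 3.02 and 1.86 in anoxia and 2.46 and 0.89 with sucrose, a change of -0.77 ± 0.40 (adjusted p = 0.999). AT4G24110 read -1.68 and -1.39 in air, 3.21 and 1.29 in anoxia and 2.67 and 0.22 with sucrose. AT5G44730, of the haloacid dehalogenase-like hydrolase family, was lower by 0.80 and 0.57. For all 3 genes the levels with sucrose stayed above both air arrays. AT4G17670 was the member most clearly higher in both, at -0.10 and -0.40 in air, 3.70 and 0.52 in anoxia and 4.40 and 1.30 with sucrose.

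Among genes that take up, split or burn sugar no member passed, and the largest changes of named members were seen in experiment 1. Of 38 genes of glycolysis and pyruvate use 10 were tested, and 4 were lower and 1 higher in both experiments. The medians were -0.42 and 0.09, or -0.23 and 0.04 with the length correction. PPDK, pyruvate orthophosphate dikinase, was lower by 1.42 and 0.12, and GAPC2, a cytosolic glyceraldehyde phosphate dehydrogenase, by 0.28 and 0.08. Of 27 genes of sucrose breakdown and hexose phosphorylation 5 were tested (medians -0.36 and 0.07, or -0.16 and 0.03 corrected). The fructokinase gene AT2G31390 read 2.39 and 2.00 in air, 5.43 and 3.61 in anoxia and 5.15 and 3.36 with sucrose. Its levels with sucrose were thus close to those under anoxia alone and far above air. Of 30 sugar transporters 9 were tested (medians -0.27 and 0.05, or -0.10 and -0.03 corrected). SWEET2, a sugar transporter of the vacuole, was lower by 1.24 and 0.11, and AT5G61520, a hexose transporter, was higher by 0.30 and 0.56. Of 16 genes of fermentation and of alanine or GABA metabolism 3 were tested (medians -0.37 and 0.18, or -0.34 and 0.15 corrected). Among these, ALDH7B4, an aldehyde dehydrogenase, was lower by 0.43 and 0.13.

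Starch genes were tested through 4 of 27 members, 3 of them lower in both experiments. PWD, the kinase that primes starch for degradation, was lower by 0.48 and 0.41, and DPE1, which rearranges maltooligosaccharides in plastids, by 0.34 and 0.49. APL3, a subunit of the first committed enzyme of starch synthesis that sugar is known to induce, was lower by 0.22 and 0.09, at levels of -0.78 and -0.25 with sucrose. It was dim, with signals of 25.6 and 27 in anoxia and 5.6 and 40.1 with sucrose, each below the median of its array. The change of APL3 in the fit was -0.16 ± 0.31, so these arrays do not settle its direction. Of 34 photosynthesis and chlorophyll genes 4 were tested and 3 were lower in both (medians -0.82 and -0.12). LHCB4.2, an antenna protein of photosystem II, was lower by 1.31 and 0.34. PORB, the light-dependent enzyme of chlorophyll synthesis that etiolated seedlings hold in store, was lower by 1.19 and 0.08. For PWD and DPE1 the change was close in both experiments, whereas for LHCB4.2 and PORB it lay mainly in experiment 1.

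Wall-loosening and auxin response genes were more often higher than lower with sucrose in both experiments. Over all tested probe sets 25.6% were higher and 21.2% lower in both. Of 43 wall-loosening genes 18 were tested, 9 of them in the shortest length class, and 10 were higher and 2 lower in both experiments. The medians were 0.21 and 0.38, or -0.02 and 0.31 with the length correction. XTH20, an enzyme that cuts and joins xyloglucan, was higher by 0.56 and 0.78, EXPA18, an expansin of root hairs, by 0.67 and 0.52, and EXLA3, an expansin-like protein, by 0.46 and 0.58. All 3 stood below the array median on both anoxia arrays. XTH16, by contrast, read 3.57 and 3.90 in air, 2.39 and 3.19 in anoxia and 1.22 and 2.56 with sucrose. It was thus lowest on the sucrose array in each experiment. Of 33 auxin response genes 8 were tested, with 5 higher and 0 lower in both (medians 0.51 and 0.39, or 0.20 and 0.33 corrected). Beside LBD29 these included LBD16, its relative in lateral root initiation, higher by 1.07 and 0.42, and GH3.3, which conjugates auxin to amino acids, higher by 0.44 and 0.70. Cell cycle genes, with 4 of 32 tested and medians of -0.45 and -0.13, included 3 that were lower in both and 0 higher, among them PRL, a helicase subunit of DNA replication, by 0.39 and 0.36.

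Autophagy genes, which serve the recycling of cell contents and are known to be induced by starvation, were more often higher than lower with sucrose. Of 35 genes 15 were tested, with 9 higher and 2 lower in both experiments, as were 25.6% and 21.2% of all tested probe sets. The medians were 0.55 and 0.23, or 0.15 and 0.18 with the length correction. The 4 members with the largest changes that held in both were all of the ATG8 family, the small proteins that coat the forming vesicle. Of the 15 tested genes 4 belong to the shortest length class, APG8A and APG8H among them. In that class the median change was 0.43 in experiment 1 and 0.03 in experiment 2. APG8H was higher by 0.58 and 0.55, ATG8E by 0.55 and 0.48, APG8A by 0.75 and 0.38 and ATG8D by 0.94 and 0.36. APG8H, the brightest of them, read 4.71 and 4.26 in air, 4.96 and 3.93 in anoxia and 5.54 and 4.47 with sucrose. Its groups overlapped, and no member passed.

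Markers of osmotic stress were nearly all outside the tested probe sets. Of 32 genes of abscisic acid and osmotic stress 2 were tested, both dehydrins, which protect cells that lose water. LTI30 read 1.36 and 0.77 in air, 1.43 and 0.76 in anoxia and 2.23 and 2.04 with sucrose, a change of 1.04 ± 0.37 (adjusted p = 0.999). COR47 was higher by 0.68 and 0.38. For LTI30 anoxia alone stood at the level of air in each experiment, and both sucrose arrays were higher.

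**Figure D5:**
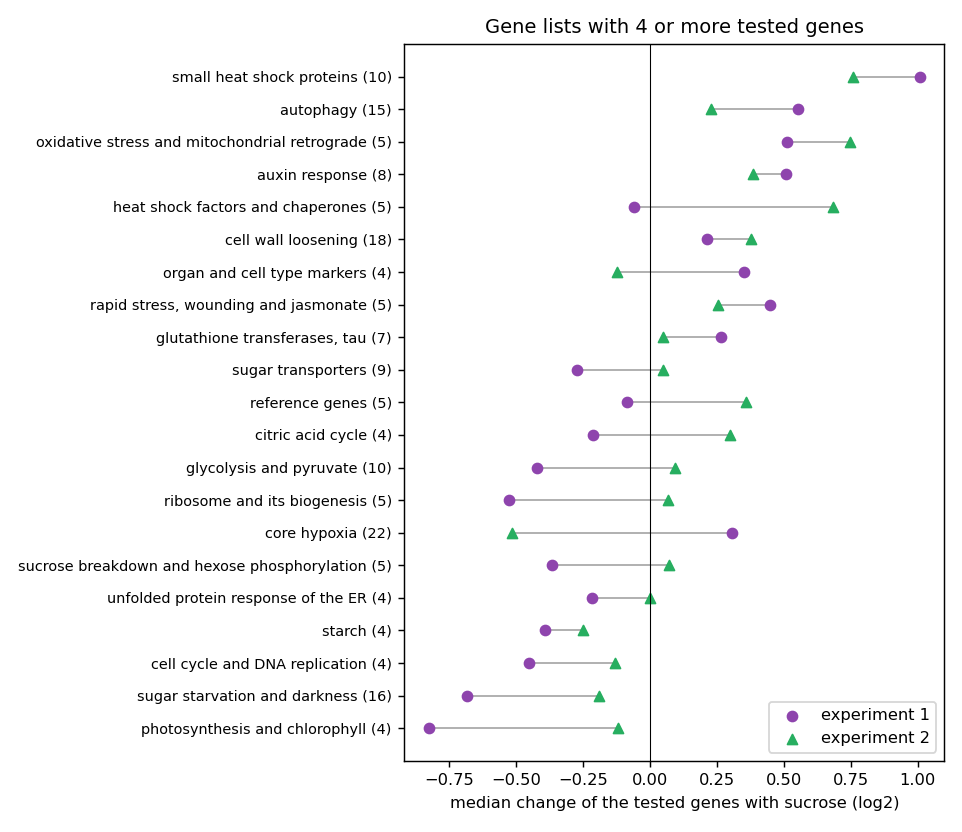
Median change with sucrose (log2, x axis) of the tested genes of each list with 4 or more of them, in experiment 1 (circles) and experiment 2 (triangles), with the number of tested genes in parentheses. The small heat shock protein list lies farthest to the right at 1.01 and 0.76, and the core hypoxia list spans 0 from 0.31 to -0.52.

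In the remaining lists with tested genes the median changes of the experiments had opposite signs or rested on few genes. Ribosome genes (5 of 24 tested) had medians of -0.53 and 0.07 and citric acid cycle genes (4 of 10) of -0.21 and 0.30, in both lists with 0 members of 1 direction in both experiments. Fatty acid oxidation and the glyoxylate cycle (3 of 21) had medians of -0.49 and 0.00, and ethylene genes (2 of 22) of -0.48 and 0.36. Sugar-induced storage and carbon use (2 of 16) had medians of -0.08 and 0.04, and flavonoid synthesis (1 of 14) 0.75 and -0.06. Genes often used as references (5 of 16) had medians of -0.08 and 0.36. Of these, AT4G34270 was lower by 0.08 and 0.11 and PEX4 higher by 0.52 and 0.65. Markers of organs and cell types were covered by 4 of 37 genes. PYK10, a beta-glucosidase of the roots and hypocotyls of seedlings, stood between 6.13 and 6.35 in air and between 6.16 and 6.51 on the 4 arrays compared. EXPA18, SPCH and FMA, which mark root hairs and the stomatal lineage, were dim throughout, and whether the share of organs differed between groups was not tested. The lists of trehalose phosphate, nitrogen assimilation and seed reserves had no tested gene and are not analysed here.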

How the data were processed

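Total RNA of 6 pools of seedlings was read on Affymetrix arrays, 2 for each of 3 groups, grouped by title. Per probe set, the authors deposited 1 intensity on a linear scale, for 22810 probe sets. Which software made the intensity, and with what background correction and scaling, is not given in the sources used here. From these, log2(intensity + 16) was computed after removal of 64 control probe sets, and the array's median was subtracted. The lowest 30% of the other 22746 by mean level were not tested, which left 15922. The fit (limma 3.58.1 in R 4.3.3) had 1 coefficient per group and the experiment as a block over all 6 arrays, with eBayes moderation following an intensity trend and Benjamini-Hochberg adjustment at a threshold of 0.05. It had 2 residual degrees of freedom, and the prior added 17. The titles number the experiments, and checked across probe sets the replicate differences correlated at r = 0.56 between the anoxia groups, 0.38 between air and anoxia and 0.39 between air and sucrose.

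Genes come from the platform annotation, with names and lengths (the whole gene, introns included) from RefSeq's table of assembly TAIR10.1, whose relation to the array's design is not stated. Of the tested probe sets 8731 have 1 gene, for 8597 genes of known length. A list uses 1 probe set a gene, the brightest, and 30 lists hold 789 genes, of which 180 were tested. Genes were named by rule: up to 15 higher and 10 lower among those over 2-fold the same way in both experiments, ordered by the smaller change, up to 4 per list, and every tested member of the small heat shock protein and sugar starvation lists. The comparison, lists and rule were chosen with earlier results of these data known. Where the text goes beyond the rule, the genes were chosen after their values were seen.

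Tested on simulated data with 200 of 15922 probe sets changed, the fit with the block made 141 calls, of which 4 were false. It recovered 11.9% of the changes that were 2-fold, 94% at 4-fold and 100% at 8-fold. Without the block the shares were 0%, 13.4% and 57.6%. These rates describe the simulated data only. How far they apply to the arrays here, where changes in experiment 1 went with gene length, was not tested. Changes on these arrays also had a wider spread over probe sets in experiment 1 (SD 0.59) than in experiment 2 (SD 0.39). Alternatives were pseudocounts of 1 and 64, other filters, scalings and thresholds, no block, no trend, only the 4 arrays compared, and each array left out. The number of arrays limits the precision.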

Additional observations from a re-analysis of the deposited data

Results flagged for a closer look

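Control probe sets outside the comparison set the arrays of experiment 1 apart. The control for large-subunit ribosomal RNA read 848 on the sucrose array and 1211 on the anoxia array of experiment 1, above the 168 and 12.5 of the air arrays and the 4.2 and 8.2 of the anoxia and sucrose arrays of experiment 2. The 3' over 5' ratio on the sucrose array of experiment 1 was 21.6 for actin and 7.61 for GAPDH, above the 4.24 and 2.42 of the higher air array. Their part in the changes of experiment 1 was not tested.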

How the results depend on the processing

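The number of called probe sets (3) was 0 without the replicate block, with no intensity trend, with a pseudocount of 1, with quantile normalization, with scaling to a common median or trimmed mean, and at a threshold of 0.01. Unadjusted p-values under 0.05 then numbered 161 (no block), 539, 636, 680, 633 and 660, each a smaller share than 0.05 of those tested. It was 27 with no filter, 29 with only the 4 arrays compared, 13 with a pseudocount of 64 and 8 at a threshold of 0.1. With single arrays left out it ranged from 0 (without either sucrose array, with 392 and 1556 at an unadjusted p under 0.05 and the lone array assumed to vary like the other groups) to 30 (without either air array), and it was 5 and 7 without the anoxia array of experiments 1 and 2. The cause was not tested. Of the counts over 2-fold in both experiments, 48 higher and 9 lower became 142 and 29 with a pseudocount of 1, 18 and 2 with 64, 291 and 88 at 1.5-fold, and 8 and 0 at 3-fold. The length correction took the 23 higher genes to 14. The median change of the small heat shock protein list (0.98) was 0.79 with a pseudocount of 64, 0.75 with the length correction and 0.60 to 1.17 with single arrays left out. That of the sugar starvation list (-0.37) ranged from -0.70 to -0.15 and that of the core hypoxia list (-0.13) from -0.68 to 0.56, without the sucrose array of experiment 1 or 2. The other settings moved these medians by less than the spread between experiments. None of the 23 named or called changes took the opposite sign under any setting run. They were picked as called, or as over 2-fold the same way in both experiments, on these same arrays. Their sign was thus little free to reverse, and its constancy is no separate result. Low signals limit the dim genes.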

Other observations

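Genes encoded in the plastid genome, looked at after their values were seen, differed in direction between the experiments. Of 69 tested genes 67 were lower with sucrose in experiment 2 (median -0.47), and 56 were higher in experiment 1 (median 0.54). A probe set with no signal would show -0.47 and 0.72. Not all were dim. The gene psbA, for the core protein of photosystem II that binds plastoquinone, read 1.33 and 2.22 in air, 2.34 and 3.85 in anoxia and 3.09 and 1.53 with sucrose. The gene psbB, for a core antenna protein of the same photosystem, read 1.62 and 2.87 in air, 2.54 and 4.28 in anoxia and 3.31 and 2.88 with sucrose.

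In experiment 2, which does not include the sucrose array with the high control ratios, some genes stood out by changes larger than those in experiment 1. XTH19, a xyloglucan enzyme, was higher by 1.70 (0.28 in experiment 1), AT5G19110, of the aspartyl protease family, by 2.07 (0.29), AT4G11190, of the dirigent family, by 1.81 (0.46), and AT2G38090, a MYB-like factor, by 1.85 (0.34). XTH19 and AT4G11190 had been lower under anoxia than in air, at 2.07 and 1.16 against 3.58 and 2.51 for XTH19, and at 1.63 and 0.84 against 3.88 and 2.94 for AT4G11190. AT2G36690, of the oxoglutarate-dependent oxygenase family, was at 1.99 and 2.56 under anoxia and 1.37 and 0.87 with sucrose, lower by 1.69 in experiment 2 and by 0.62 in experiment 1. These genes were chosen after their values were seen, and no test was made of a difference between experiments.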
